A study of Anas platyrhynchos with 6 samples.

Results

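The levels of 3 hormone receptor transcripts were followed in the ovaries of laying ducks: the oxytocin-family receptor OXTR (XM_005012067.1), the mineralocorticoid receptor NR3C2 (XM_005014690.2) and the adiponectin receptor ADIPOR2 (XM_005010209.2). They were taken by transcript accession, by a rule with no threshold on their values but set with earlier results of these data known, and are 3 of the 41952 transcripts in the tables and 3 of the 19790 that were abundant enough to be tested. All 6 libraries came from ovaries of Jinding ducks (Anas platyrhynchos, a domestic laying breed) of a half-sib family, the same age (340 days) and the same feeding. The high group held 3 libraries from ducks with a laying rate above 99%, and the low group 3 libraries from ducks with a rate below 85%. The labels name no drug or other intervention and do not say whether a library came from 1 duck or from several. The spread between libraries may therefore be partly technical, and p-values measure only that spread. Libraries are called high 1 to 3 and low 1 to 3, and these numbers pair no libraries across the groups.

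Oxytocin-family peptides, which are mesotocin and vasotocin in birds, signal through receptors coupled to Gq proteins, phospholipase C and calcium release, and in laying hens vasotocin drives the contractions that expel the egg. The mineralocorticoid receptor is a steroid-activated transcription factor that binds both aldosterone and corticosterone, the main adrenal corticosteroid of birds, and is best known for control of sodium transport in epithelia. ADIPOR2 is a membrane receptor of adiponectin, an adipose hormone, and in mammals it acts through AMP-activated kinase, the nuclear receptor PPARA and ceramide breakdown. Adiponectin receptors have been described in the follicles of the chicken ovary.

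Abundance was read in FPKM, fragments scaled by transcript length and by library size, which corrects for length and so allows levels of different genes to be set side by side. Where no library is named, values are means ± SD over the 3 libraries of a group (n = 3). The summed FPKM ran from 569606 to 639135 per library, and read depth is unknown. Values were used without rescaling to equal sums except where stated. Pairwise Pearson r of log2(FPKM + 1) between libraries was 0.952 to 0.979, so no library was a copy of another. Ovarian identity was visible in each library, with summed levels of the 5 tested oocyte markers (GDF9, ZP2, ZAR1L, MOS and BTG4) between 415 and 1138 FPKM and of the 4 tested granulosa markers (FSHR, CYP19A1, FST and GJA1) between 132 and 225 FPKM. For theca, 0 of 9 markers had a named transcript in the tables. A piece of ovary holds many cell types, and a lower value can come from fewer cells of a type or from less RNA per cell, which cannot be told apart in bulk tissue.

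All 3 receptors were detected in every library at moderate levels, and none differed between high-laying and low-laying ducks beyond the spread between libraries. ADIPOR2 and NR3C2 were close to each other, at 13.0 ± 1.26 and 12.4 ± 1.70 FPKM over all 6 libraries, and OXTR was lower, at 4.86 ± 1.05 FPKM. The median tested transcript stood at 7.89 FPKM. Of the 3 receptors 0 were called between the groups by limma (adjusted p under 0.05), beside 0.00505% of all tested transcripts, and 0 had an unadjusted p under 0.05, beside 3.51% of all. The libraries of the groups overlapped for each of the 3, while 8.54% of all tested transcripts showed none.

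**Figure D1:**
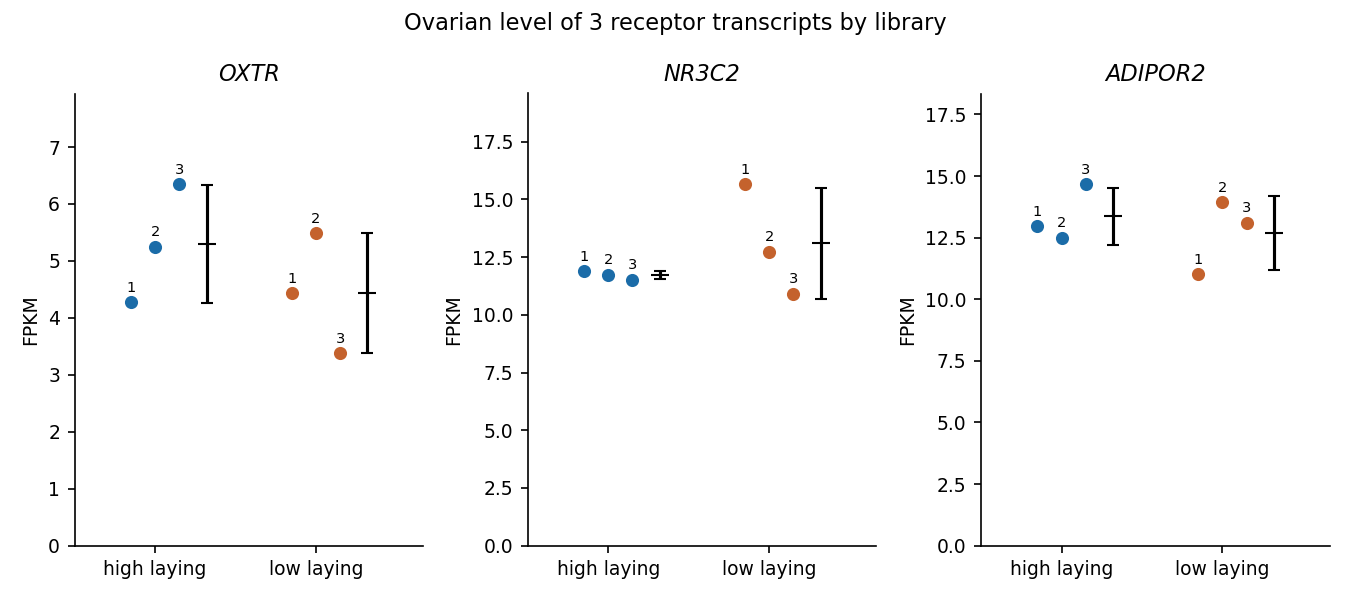
FPKM of OXTR, NR3C2 and ADIPOR2 in each ovary library. Numbered points are libraries (blue, high laying; orange, low laying), the black bars give the group mean ± SD (n = 3), and each panel has its own linear axis from 0. High and low points overlap for each transcript, and the high NR3C2 points lie within 11.5 to 11.9 FPKM.

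OXTR, the Gq-coupled receptor of the oxytocin family, was at 4.28, 5.25 and 6.35 FPKM in the high libraries and at 4.43, 5.49 and 3.38 FPKM in the low libraries. The highest value was in high 3 and the lowest in low 3, and the remaining 4 libraries interleaved. Group means were 5.29 ± 1.04 FPKM in high and 4.43 ± 1.06 FPKM in low ovaries. The difference in log2(FPKM + 1), high minus low, was 0.22 (SE 0.250, 95% interval -0.37 to 0.80, limma adjusted p = 0.9998). As a ratio of FPKM + 1 that interval runs from 0.776 to 1.74. A 2-fold difference in either direction therefore lies outside it on this scale, which understates changes of low transcripts. The upper end in log2 was 1.03 without high 1 and 1.04 without low 2, so a 2-fold higher level lay inside those intervals. An exact two-sided permutation test of the FPKM means over the 20 labelings gave p = 0.5 (0.6 adjusted over the 3 receptors), where the smallest p possible is 0.1. Without high 3 the log2 difference was 0.098 and without low 3 it was 0.071, so the size of the gap rested on these 2 libraries.

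OXTR varied most among the 3 receptors. Its coefficient of variation over the 6 libraries was 21.5%, against 13.7% for NR3C2 and 9.67% for ADIPOR2, and its highest value was 1.88 times its lowest. Against all tested transcripts this was ordinary. The SD of its log2(FPKM + 1) values over the 6 libraries was 0.263, and 37.3% of tested transcripts had an SD at or below that. In rank, OXTR lay between the 67.4th and 74.4th percentile of all transcripts in its libraries.

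NR3C2, the mineralocorticoid receptor, was nearly constant among the high libraries, at 11.9, 11.7 and 11.5 FPKM. Among the low libraries it was spread, at 15.7, 12.7 and 10.9 FPKM. Low 1 and low 2 stood above every high library and low 3 below every one. Group means were 11.7 ± 0.184 FPKM in high and 13.1 ± 2.40 FPKM in low ovaries, and the log2 difference was -0.14 (SE 0.187, 95% interval -0.57 to 0.30, limma adjusted p = 0.9998). As a ratio of FPKM + 1 the interval runs from 0.673 to 1.23. The exact permutation test of the means gave p = 0.4 (0.6 adjusted over the 3 receptors). Nearly all of the gap came from low 1: without that library the log2 difference was -0.0078.

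The contrast in spread was the most visible feature of NR3C2. Its coefficient of variation was 1.57% in high and 18.3% in low ovaries. On the log2(FPKM + 1) scale the SD was 0.0209 in the high group, and 1.02% of all tested transcripts had an SD as small or smaller there. In the low group it was 0.243, and 33.9% of tested transcripts were at or below that value. The high libraries varied less over the tested transcripts at large too, with a median SD of 0.219 against 0.335 in the low libraries. With 3 libraries a group the difference in spread of NR3C2 was noticed in these data and was not tested.

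ADIPOR2, the adiponectin receptor, was the steadiest of the 3 across all libraries. It was at 13.0, 12.5 and 14.7 FPKM in the high libraries and at 11.0, 13.9 and 13.1 FPKM in the low libraries, with the highest value in high 3 and the lowest in low 1. Group means were 13.4 ± 1.15 FPKM in high and 12.7 ± 1.51 FPKM in low ovaries, and the log2 difference was 0.073 (SE 0.176, 95% interval -0.34 to 0.48, limma adjusted p = 0.9998). The ratio of FPKM + 1 over that interval runs from 0.792 to 1.398. The sign of this small difference turned without low 1 (-0.018), with each library rescaled to a sum of 1000000 (-0.023) and with array weights (-0.067), so no direction is given for ADIPOR2. The exact permutation test of the means gave p = 0.6 (0.6 adjusted over the 3 receptors). The SD of its log2(FPKM + 1) values over the 6 libraries was 0.132, and 7.06% of tested transcripts had an SD at or below that.

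**Figure D2:**
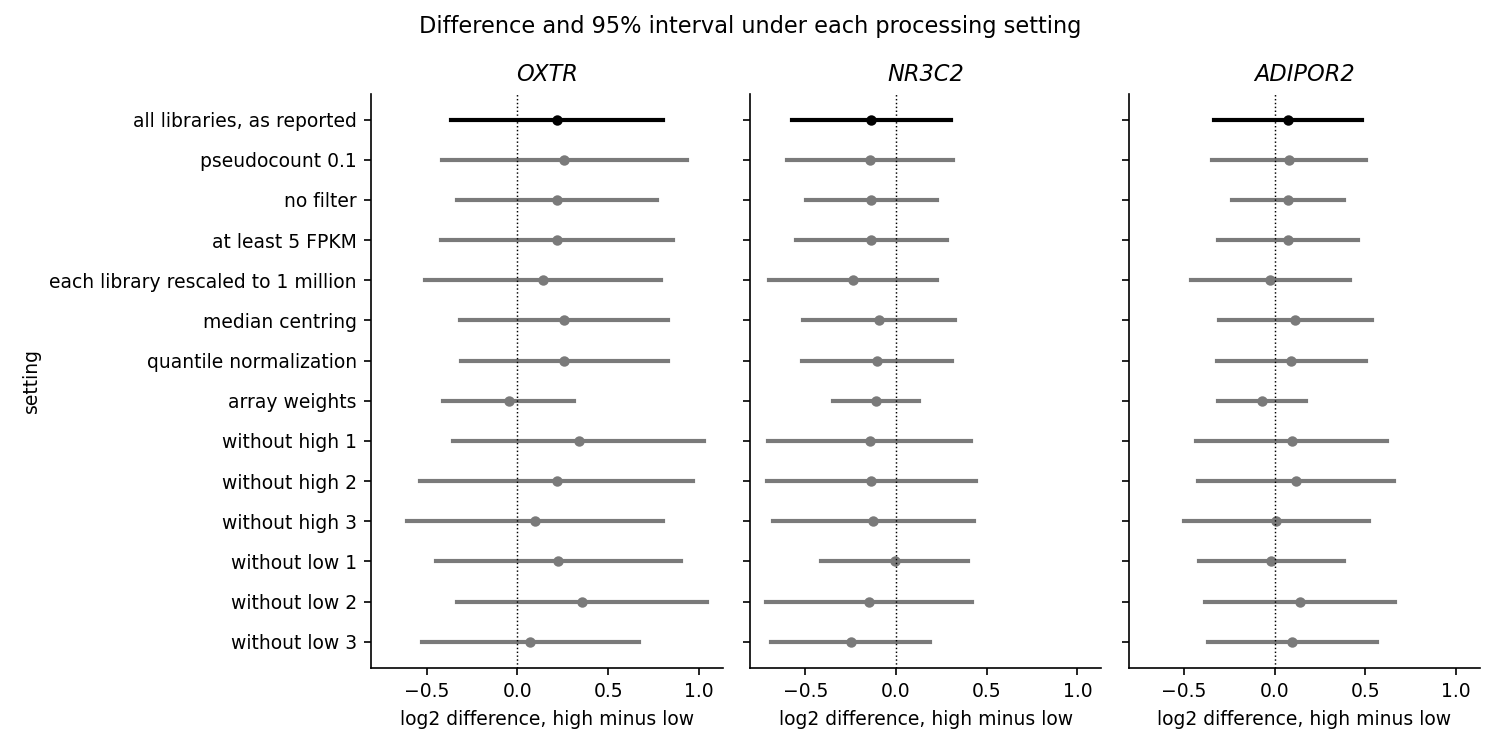
Difference in log2(FPKM + 1), high minus low, of each receptor with its 95% interval, as reported (black) and under 13 alternatives (grey). Each interval includes 0. The sign turned in 1 setting for OXTR, in 0 for NR3C2 and in 3 for ADIPOR2.

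The order of the receptors within a library was OXTR below NR3C2 and ADIPOR2 in all 6 libraries. ADIPOR2 stood above NR3C2 in 5 of 6, and in low 1 the order was turned, with NR3C2 at 1.42 times ADIPOR2. Across the other libraries that ratio of levels lay between 0.785 and 0.940. Ratios within a library do not depend on how libraries are scaled to each other. The ratio of OXTR to NR3C2 was 0.360, 0.447 and 0.551 in high 1 to 3 and 0.283, 0.431 and 0.310 in low 1 to 3, so the 2 largest were in high ovaries and the groups overlapped. The mean log2 ratio was -1.17 ± 0.308 in high and -1.58 ± 0.321 in low ovaries, a difference of 0.41 with an exact permutation p of 0.2 (0.6 adjusted over 3 pairs). For OXTR to ADIPOR2 the log2 ratio differed by 0.19 between the groups (exact permutation p = 0.5, adjusted 0.6). For NR3C2 to ADIPOR2 it differed by -0.22 (exact permutation p = 0.6, adjusted 0.6). Removing low 3 from the former (-0.024) and low 1 from the latter (0.011) turned the sign.

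Around the receptors, 134 genes in 4 lists, the 3 receptors included, were chosen for their known roles in nonapeptide, corticosteroid and adiponectin signalling or as other ovarian hormone receptors. Few of them could be found by name: 15 besides the 3 receptors had a named and tested transcript. Of these 15, 0 were called by limma, beside 0.00505% of all tested transcripts, and 2 had an unadjusted p under 0.05, beside 3.51% of all. The 2 with an unadjusted p under 0.05 were NEDD4L and BMPR2. There were 7 with a log2 difference above 0 and 8 below, and 49.5% of all tested transcripts were above 0. The same shares of all tested transcripts stand beside the counts given for each list. For 4 of the 15 (NEDD4L, STK11, PTGFR and BMPR2) high and low libraries did not overlap, beside 8.54% of all tested transcripts, and with so few genes nothing particular to them is read from these counts. Over all 19790 tested transcripts the median log2 difference was -0.0028.

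**Figure D3:**
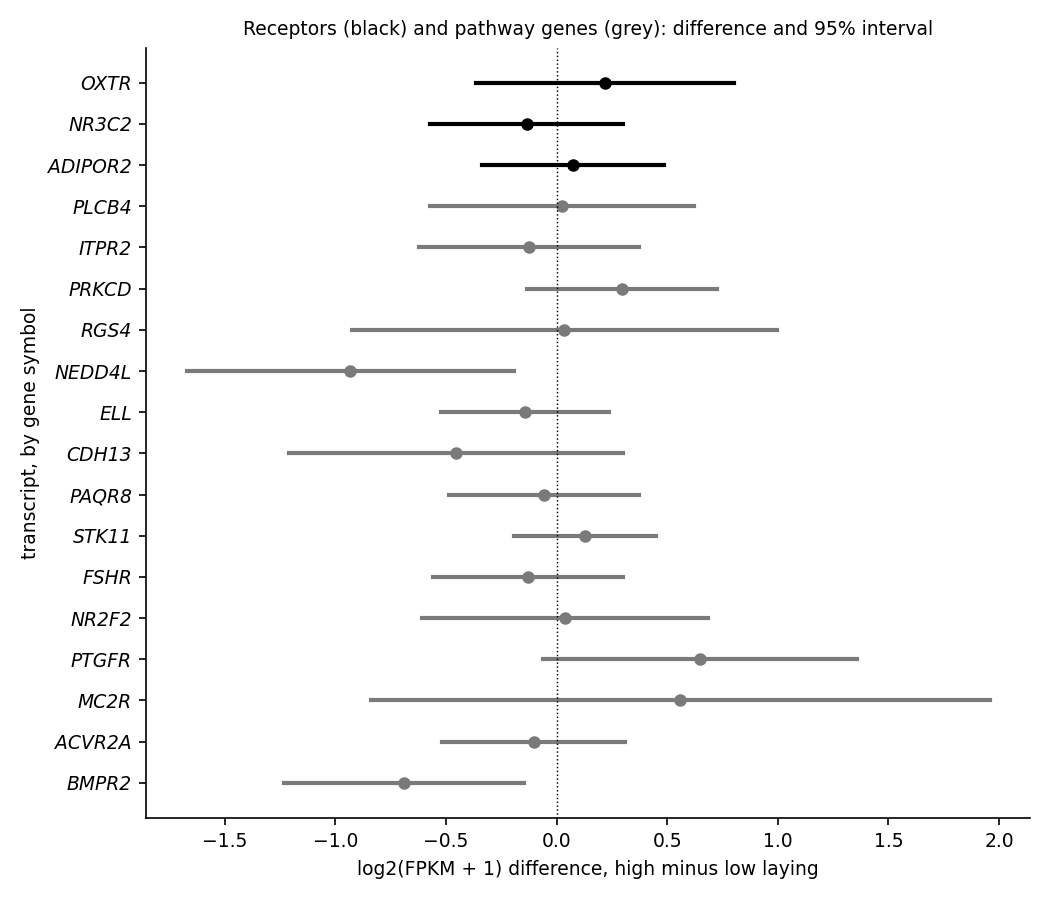
Difference in log2(FPKM + 1) between high-laying and low-laying ovaries, with its 95% interval from limma. The 3 receptors are black. The 15 other tested genes of the lists, which include other ovarian hormone receptors such as BMPR2, are grey. Points right of the dotted line are higher in the high group. The intervals of NEDD4L and BMPR2 lie below 0, before adjustment for the number of transcripts tested.

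In the list for OXTR signalling 0 of 5 tested members, OXTR included, were called, with 4 above 0, 1 below and a median log2 difference of 0.034. Of those above 0, PLCB4 (0.023) and RGS4 (0.034) turned sign in 4 alternatives each and OXTR in 1, so no direction is read for the list. PRKCD, a protein kinase C of the diacylglycerol-responsive kind, was at 43.0 ± 6.09 FPKM in high and 35.0 ± 6.50 FPKM in low ovaries. ITPR2, a calcium channel opened by inositol trisphosphate, was at 6.25 ± 1.004 against 6.89 ± 0.830 FPKM, and the phospholipase PLCB4 at 1.66 ± 0.324 against 1.64 ± 0.558 FPKM. RGS4, which speeds the shut-off of Gq and Gi proteins, was at 39.9, 22.1 and 12.4 FPKM in the high libraries and at 20.5, 16.2 and 30.9 FPKM in the low libraries. These values ran opposite to OXTR, being high in high 1 and low 3, where OXTR was low, and lowest in high 3, where OXTR was highest. Pearson r between RGS4 and OXTR over the 6 libraries was -0.82 (exact permutation p = 0.0472, 0.504 adjusted over 12 relations), Spearman rho was -0.89 (exact permutation p = 0.0333, 0.2 adjusted), and Pearson r was -0.89 without the 2 libraries farthest from the median of RGS4. The relation did not pass the correction. The peptide genes and the vasotocin receptors of the list had no named transcript here.

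For NR3C2 signalling the tested members were NR3C2, NEDD4L and ELL, with 0 called, all 3 below 0 and a median log2 difference of -0.14. ELL turned sign in 1 alternative, and with 3 transcripts no direction is read for the list. NEDD4L, a ubiquitin ligase that in mammals removes sodium channels from the cell surface and is restrained by the mineralocorticoid-induced kinase SGK1, was at 1.27, 1.61 and 1.45 FPKM in the high libraries and at 2.45, 3.07 and 6.20 FPKM in the low libraries. Every low library was above every high library. Its log2 difference was -0.93 (SE 0.317, limma adjusted p = 0.9998), and it lay between -1.27 and -0.62 over the alternatives. NEDD4L and NR3C2 did not follow each other across libraries (Pearson r = -0.12, exact permutation p = 0.803; Spearman rho = -0.086, exact permutation p = 0.919), with NEDD4L highest in low 3, where NR3C2 was lowest. Without low 2 and low 3, the 2 libraries farthest from the median of NEDD4L, Pearson r was 0.93 over the remaining 4. There low 1 stood above the high libraries in both transcripts, and the high libraries were nearly constant for NR3C2. That coefficient therefore rests on low 1. ELL, an elongation factor of RNA polymerase II, was at 16.9 ± 1.17 against 18.8 ± 2.04 FPKM.

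Adiponectin signalling had 4 tested members, ADIPOR2 among them, with 0 called, 2 above 0, 2 below and a median log2 difference of 0.0075. PAQR8, a membrane progestin receptor of the same protein family as ADIPOR2, was at 12.0, 12.1 and 14.3 FPKM in the high libraries and at 11.9, 15.7 and 12.7 FPKM in the low libraries. Both transcripts were highest in high 3 and low 2 and lowest in low 1, with nearly equal levels. Pearson r was 0.76 (exact permutation p = 0.0847, 0.504 adjusted over 12 relations), Spearman rho was 0.89 (exact permutation p = 0.0333, 0.2 adjusted), and Pearson r was 0.66 without the 2 libraries farthest from the median of PAQR8, so the likeness did not pass the correction.

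CDH13, the cadherin that binds adiponectin without a membrane-spanning segment of its own, was at 18.1 ± 4.16 FPKM in high and 26.1 ± 9.89 FPKM in low ovaries, with overlapping groups. STK11, a kinase that activates AMP-activated kinase, was at 28.9 ± 0.541 against 26.3 ± 1.46 FPKM. Every high library of STK11 was above every low library, with a log2 difference of 0.13 (SE 0.137, 95% interval -0.19 to 0.45). PPARA, the nuclear receptor downstream of ADIPOR2, its coactivator PPARGC1A and the family member PAQR9 were below the filter, at means over 6 libraries of 0.943, 0.750 and 0.549 FPKM. PPARA reached 2.47 FPKM in low 3 alone.

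Other ovarian hormone receptors gave a scale for these levels. FSHR, which binds follicle-stimulating hormone, was at 16.0 FPKM and ACVR2A, an activin receptor, at 16.8 FPKM over all 6 libraries, slightly above ADIPOR2 and NR3C2. The orphan nuclear receptor NR2F2 was far more abundant, at 199.8 FPKM. PTGFR, which binds prostaglandin F, and MC2R, the corticotropin receptor, were below OXTR in the mean over 6 libraries, at 2.63 and 2.87 FPKM. MC2R ran from 0.078 FPKM in low 3 to 5.30 FPKM in high 2, where OXTR was at 5.25 FPKM. Of the 6 tested receptors 0 were called, with 3 above 0, 3 below and a median log2 difference of -0.032. BMPR2, which binds bone morphogenetic proteins, stood at 11.9 ± 3.19 FPKM in high and 19.7 ± 3.53 FPKM in low ovaries, with a log2 difference of -0.69 (limma adjusted p = 0.9998) and no overlap. For PTGFR, too, the groups did not overlap, with a log2 difference of 0.65 (SE 0.304).

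Markers of ovarian cell types moved between the libraries as well. The mean deviation of the 5 oocyte markers from their average over 6 libraries, in log2(FPKM + 1), was 0.49 in low 1 and -0.77 in low 3, while the high libraries lay between -0.13 and 0.17. NR3C2 was likewise highest in low 1 and lowest in low 3 (Pearson r = 0.77, exact permutation p = 0.119; Spearman rho = 0.83, exact permutation p = 0.0583; 0.403 and 0.525 adjusted over 27 relations). Without the 2 libraries farthest from the median of the oocyte markers, Pearson r was 0.46. The summed level of these markers was 703 to 976 FPKM in high and 415 to 1138 FPKM in low ovaries.

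Stromal fibroblast markers (DCN, LUM, DPT, PDGFRA, ASPN and OGN, 6 of 9 tested) ran opposite to NR3C2, with the lowest mean deviation, -0.66, in low 1 (Pearson r = -0.84, exact permutation p = 0.0333; Spearman rho = -0.60, exact permutation p = 0.242; 0.3 and 0.707 adjusted). Pearson r was -0.80 without the 2 libraries farthest from the median of the stromal markers. Their summed level was 989.5 to 1490 FPKM in high and 774 to 1305 FPKM in low ovaries. The log2 difference, high minus low, was above 0 for 6 of 6 (median 0.30), with 0 called by limma and 0 at an unadjusted p under 0.05. ASPN, at 0.0066, and OGN, at 0.11, turned sign in 5 and 2 of the 13 alternatives. Over all tested transcripts 49.5% were above 0, 0.00505% were called and 3.51% had an unadjusted p under 0.05. Leukocyte markers (JCHAIN, CYBB, SPI1, LCP1 and LAPTM5, 5 of 10 tested) were likewise above 0 for 5 of 5, with a median log2 difference of 0.57, 0 called by limma and 1, LAPTM5, at an unadjusted p under 0.05. Their summed level was 430.5 to 1570 FPKM in high and 191 to 460.1 FPKM in low ovaries. JCHAIN alone gave 1347.5 FPKM in high 1, the library with the top sum. The mean deviation of these markers was lowest, -0.88, in low 1 and highest, 0.85, in high 1. Against NR3C2 they gave a Pearson r of -0.75 (exact permutation p = 0.115, 0.403 adjusted) and a Spearman rho of -0.49 (exact permutation p = 0.356, 0.707 adjusted), with Pearson r at -0.74 without the 2 libraries farthest from their median. Of the adipocyte markers only CIDEA had a named and tested transcript, 1 of 8. It was at 45.1 to 63.6 FPKM in high and 56.2 to 97.4 FPKM in low ovaries. Among the marker lists it tracked NR3C2 most closely. Pearson r was 0.87 (exact permutation p = 0.0125, 0.225 adjusted) and Spearman rho 0.94 (exact permutation p = 0.0167, 0.45 adjusted). Pearson r was 0.98 without the 2 libraries farthest from the median of CIDEA. Among the other named transcripts 2.43% had an r of at least 0.9 with NR3C2. The part of cell type composition in the NR3C2 values was not tested.

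**Figure D4:**
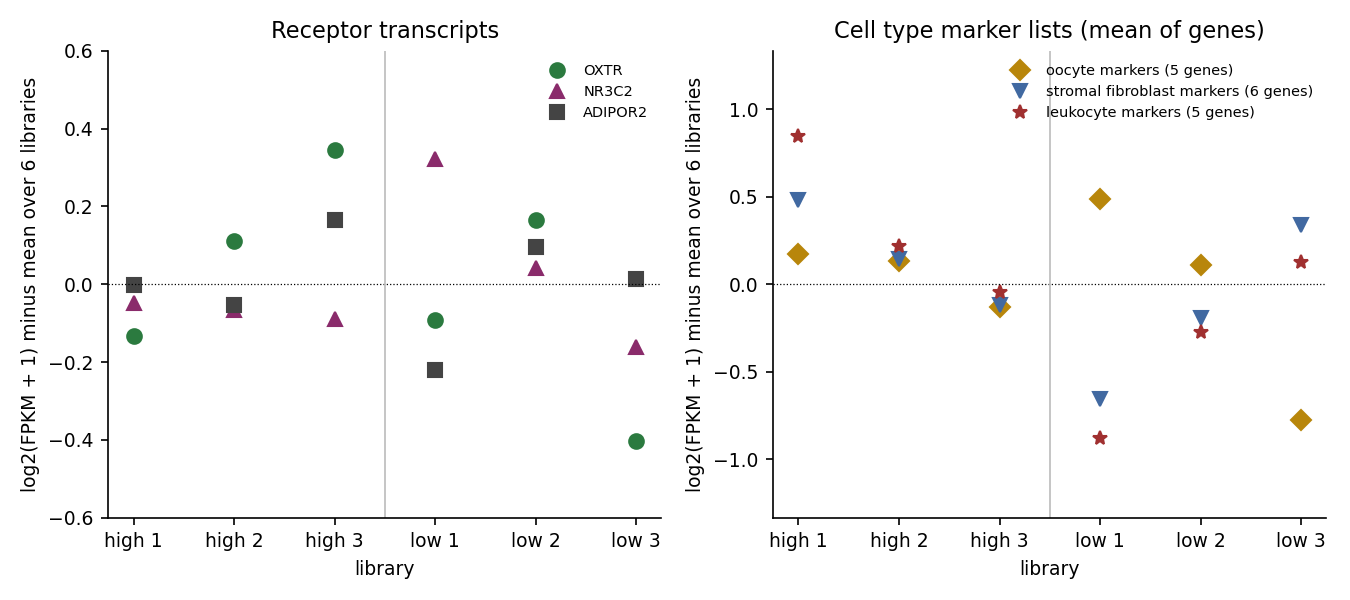
Deviation of log2(FPKM + 1) from the mean over the 6 libraries, for the 3 receptors (left) and for the mean of 3 marker lists (right), in each library; the vertical axes differ. Low 1 is the highest library for NR3C2 and for oocyte markers and the lowest for stromal and leukocyte markers, and low 3 is the lowest for NR3C2, OXTR and oocyte markers.

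ADIPOR2 was closest to the pair of oviduct gland and surface epithelium markers tested, LYZ and ESRP1, 2 of 11 (Pearson r = 0.93, exact permutation p = 0.0167; Spearman rho = 0.83, exact permutation p = 0.0583; 0.225 and 0.525 adjusted). That relation rested on the extreme libraries, with Pearson r at 0.50 without the 2 farthest. Their summed level was 87.9 to 216 FPKM in high and 47.3 to 189.8 FPKM in low ovaries, mostly LYZ. The 2 markers did not run together across libraries. LYZ was lowest in low 1, at 36.3 FPKM, where ESRP1 was highest, at 11.0 FPKM. In low 3 ESRP1 was lowest, at 4.94 FPKM, and LYZ was at 184.9 FPKM. The coefficient is with the mean of the pair, and no cell type is read from it. For OXTR the largest coefficient with any of the 9 marker lists was 0.55, with MC2R, the 1 of 7 adrenal markers tested (exact permutation p = 0.253, adjusted 0.620; Spearman rho = 0.26, exact permutation p = 0.658, adjusted 0.889), and it was -0.71 without the 2 libraries farthest from the median. MC2R was near the floor in low 3, at 0.078 FPKM. The adrenal marker TH, below the filter, went the other way. It was at 5.42 FPKM in low 3 and at most 0.139 FPKM in any other library. None of the 27 relations between the 3 receptors and the marker lists passed after adjustment.

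Among the 2185 other tested transcripts with a gene symbol, the 5 most like each receptor were named by Pearson r over the 6 libraries, as a description of these libraries. For OXTR these were transcripts of SMYD5 (r = 0.96), RIOX1, a ribosomal oxygenase (0.95), BLZF1, a Golgi protein (0.95), PEX11A of the peroxisome membrane (0.93) and FAR2, a fatty acyl-CoA reductase (0.93). Each was lowest in low 3, as OXTR was. Without low 3 the coefficients were 0.84 to 0.94. An r of at least 0.9 with OXTR was found for 0.503% of the named transcripts and 0.748% of all tested ones.

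NR3C2 had the most companions, with an r of at least 0.9 for 2.43% of the named transcripts and 2.56% of all tested ones. The closest were LCLAT1, a lysophospholipid acyltransferase (r = 0.98), the peroxisomal transporter ABCD3 (0.98), MYOT, a protein of the muscle Z-disc (0.97), the methyltransferase SETD4 (0.97) and the ion channel PKD2L1 (0.97). Each peaked in low 1, and their lowest library was low 3. LCLAT1 was at 1.44, 1.20 and 1.06 FPKM in the high libraries and at 4.83, 2.27 and 0.468 FPKM in the low libraries, the same order of all 6 libraries as NR3C2, over a wider range. Leaving out low 1 left r at 0.99 for LCLAT1, 0.90 for ABCD3, 0.80 for MYOT, 0.93 for SETD4 and 0.75 for PKD2L1. ABCD3 was the most abundant of the 5, at 47.5 ± 3.22 FPKM in high and 53.6 ± 13.7 FPKM in low ovaries.

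For ADIPOR2 the closest were STX19, a syntaxin (r = 0.96), ARMH3 (0.96), the chromatin reader ZMYND11 (0.95), NADK, which phosphorylates NAD (0.95), and INO80D of a chromatin remodelling complex (0.94). All 5 were lowest in low 1 and highest in high 3, as ADIPOR2 was. NADK was at 30.9, 35.3 and 50.9 FPKM in the high libraries and at 19.0, 42.2 and 30.7 FPKM in the low libraries, a wider range than that of ADIPOR2. Without low 1 the coefficients of the 5 were 0.86 to 0.87. An r of at least 0.9 was found for 0.595% of the named transcripts and 0.713% of all tested ones.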

How the data were processed

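Per the labels' protocols, frozen ovaries were extracted with Trizol and polyadenylated RNA was made into stranded TruSeq libraries. Per the submitters' processing notes, TopHat2 2.0.9 and Bowtie2 2.0.6 were used. Neither the program that gave abundances nor the build or annotation is given in the sources used here, so no coordinates are printed. The deposited tables name no unit; their values were read as FPKM made by the authors, since they are fractional and sum differently per library. A search for whole-read steps in 6632 low transcripts saw no clear one. The fullest bin of log2 ratios, 0.02 wide, held at most 1.10% of them. That share was set against no expected value, and transcripts without signal in some library were left out, so steps are not excluded. No count test was run and depth is unknown.

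Gene symbols came from a RefSeq table of the IASCAAS Pekin duck telomere-to-telomere assembly, matched by accession without version: 4636 transcripts (11.1%) matched and 3452 had a symbol. Each receptor matched 1 transcript; unmatched transcripts of the same genes may exist, and values describe the transcript.

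Transcripts that reached 1 FPKM in 3 or more libraries were tested on log2(FPKM + 1), high minus low, with limma-trend (limma 3.58.1, R 4.3.3), group as the only term, two-sided, Benjamini-Hochberg over 19790 transcripts, threshold 0.05. The fit was tested on simulated data. Single values were compared by exact permutation over 20 labelings and correlations over 720 pairings (SciPy 1.17.1). The labels name no batch. The receptors and the gene and marker lists were chosen with earlier results of these data known. Named genes were the receptors, up to 6 tested genes per pathway list taken by level, and the 5 most similar named transcripts per receptor. Alternatives were pseudocount, filter, scaling, array weights and each library left out.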

Additional observations from a re-analysis of the deposited data

How the results depend on the processing

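None of the 3 receptors was called under any of the 13 alternatives, with limma adjusted p from 0.811 for OXTR, 0.473 for NR3C2 and 0.682 for ADIPOR2 up to 0.9999. NR3C2 kept its sign in all 13. OXTR turned with array weights (-0.048). ADIPOR2 turned with array weights (-0.067) and with rescaling of each library to a sum of 1000000 (-0.023). As a difference of means it was -0.444 on that scale. The rescaling moved the median log2 difference of all tested transcripts to -0.099. It moved all 3 receptors toward the low group, with OXTR going from 0.22 to 0.14 and NR3C2 from -0.14 to -0.24. With 1 library left out at a time, the log2 difference ran from 0.071 to 0.35 for OXTR, -0.25 to -0.0078 for NR3C2 and -0.018 to 0.14 for ADIPOR2, and the ADIPOR2 difference of means from -0.155 to 1.31 FPKM. Log2 ratios ran from 0.26 to 0.59 for OXTR to NR3C2, -0.024 to 0.31 for OXTR to ADIPOR2 and -0.38 to 0.011 for NR3C2 to ADIPOR2.

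The number of transcripts called by limma was 1 as reported, 0 without a filter, 2292 with array weights, and 0 to 2 with a library left out (0 without low 2, 2 without high 1). An unadjusted p under 0.05 was found for 694 of 19790 transcripts as reported and 1771 of 39755 without a filter. That count was 1882 of 19166 without low 1 and 1416 of 19265 without low 3, and 428 to 573 without any other library. Array weights, whose estimate stopped before it converged, put 97.1% of the low group's weight on low 2. They called PRKCD (limma adjusted p = 0.0362), NEDD4L (0.0370), CDH13 (0.0422) and BMPR2 (0.0305) of the 15 other tested genes of the lists. These calls stand beside 2292 of all 19790 tested transcripts under the same weights, and nothing particular to the listed genes is read from them. No paired analysis was possible because the labels name no pairing of libraries across the 2 groups. Depth is unknown, so the precision comes from the spread between libraries. In limma-trend the spread of each transcript is drawn toward that of other transcripts at a like level, and both groups share 1 variance. The median 95% interval was 0.608 on either side of a log2 difference.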

Other observations

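Of the 3 genes on either side of each receptor in the order of the Pekin duck assembly, 3 had transcripts matched in the tables. FBXL14, an F-box protein gene next to ADIPOR2, was at 7.06, 6.19 and 6.72 FPKM in the high libraries and at 5.60, 5.64 and 7.14 FPKM in the low libraries. PRMT9, an arginine methyltransferase gene 3 places from NR3C2, was at 33.4, 32.2 and 28.9 FPKM in the high libraries and at 42.1, 30.1 and 20.03 FPKM in the low libraries, highest in low 1 and lowest in low 3 as NR3C2 was. A non-coding transcript between these genes, XR_216898.2, stayed at 0.282 to 0.631 FPKM. The neighbours were looked up after the receptor values had been seen.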
